A study of Mus musculus with 212 samples.

Results

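Heat shock proteins and other chaperones were described through 34 mouse genes, chosen by symbol: the regulator Hsf1, the HSP70, HSP110 and HSP90 families, the mitochondrial chaperonin, small heat shock proteins with Bag3, J proteins, HSP90 co-chaperones, and 7 subunits of the cytosolic chaperonin TRiC. Of these, 33 averaged at least 1 FPKM (fragments per kilobase of transcript per 1e6 mapped fragments) over the 210 libraries used. They are the members. Hspa1a averaged 0.596 FPKM and stayed out of the counts of members. The table holds 47631 genes, of which 13164 reached the same mean.

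The study followed transcript levels by poly(A) RNA sequencing in skin fibroblasts of C57BL/6 mice, either WT or Bmal1-/-, and its title asks about circadian rhythms without the clock gene Bmal1. Each genotype was followed in 5 series of harvests, called courses here, and every harvest gave 1 library. The courses labelled AM and PM have 17 time points, CT0 to CT48 every 3 h. Those at 27, 32 and 37 °C have 24 time points, CT0 to CT46 every 2 h. All cells of both genotypes and all courses had been given 100 nM dexamethasone, a synthetic glucocorticoid that synchronises cellular clocks, for 15 min. Harvest began 48 h later. The labels give each time point 3 wells. The meaning of AM and PM, the way Bmal1 was disrupted and the number of animals or cell preparations the cultures came from is not stated in the labels or the design text. The p-values below therefore measure the scatter of libraries around the fitted curve of a course, not the scatter between preparations.

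Chaperones bind unfolded or partly folded proteins and help them to fold, assemble or be degraded. HSP70 proteins do so in cycles driven by ATP, in which J proteins deliver clients and HSP110 proteins and BAG domain proteins release the nucleotide. HSF1 is the transcription factor that, when released from chaperones on protein damage, binds heat shock elements and switches on many of these genes.

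Sequencing depth, estimated from the FPKM that a single read gives, ran from 10.88 to 35.35 M (1e6) reads per library, and the medians of the courses from 20.44 to 30.82 M. All 9 fibroblast markers averaged at least 1 FPKM. Of the keratinocyte markers Krt5, Krt1 and Epcam stayed under 0.1 FPKM in every library used, as did the macrophage markers Adgre1 and Ptprc. In each WT course, however, 1 of 5 keratinocyte and 2 of 5 macrophage markers averaged at least 1 FPKM. In the Bmal1-/- courses 0 keratinocyte and 0 to 2 macrophage markers did. The gene that Bmal1-/- cells lack, named Arntl in the annotation, averaged 6.14 ± 1.57 FPKM (SD, n = 24) in WT and 5.79 ± 0.53 in Bmal1-/- at 37 °C, so its total reads do not check the labels. At CT14 of the 27 °C courses the library labelled WT held Hspa1b at 5.23 FPKM and Hsph1 at 4.47, and that labelled Bmal1-/- 17.6 and 14.2. Of these 4 values, 3 lay in the 27 °C range of the other genotype. The 17.6 FPKM of Hspa1b lay between the ranges of the genotypes. Cdkn1a, a gene outside the list, stood at 109 FPKM in the library labelled WT and at 3.87 in that labelled Bmal1-/-. In the other 27 °C libraries Cdkn1a was higher in Bmal1-/-, 20.5-fold in FPKM + 1, without overlap. The pair was left out, and a mix-up of its labels was not tested. Ranges and counts of matched time points given below for 27 °C are therefore those without this pair. In the 32 °C libraries the gene Gm26377 took 18.84 to 34.15% of the summed FPKM, against at most 4.46% for the leading gene of any other library.

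Heat shock elements were looked for in the 250 bases before each annotated start, taken from RefSeq's promoter windows (GRCm38.p6), as inverted repeats of GAA spaced by 2 bases. The 2-unit forms were GAANNTTC and TTCNNGAA, and the 3-unit forms GAANNTTCNNGAA and TTCNNGAANNTTC, on both strands. The 3-unit forms contain the 2-unit forms. A window was at hand for 27 of the 34 genes, Hspa1a included. Of these, 13 (48.1%) held a 2-unit match and 3 (11.1%) a 3-unit match. Of 27025 genes with a window, 14.5% held a 2-unit match and 0.5% a 3-unit match. For the 9149 of these with a mean of at least 1 FPKM the shares were 12.1% and 0.4%. Hsf1, Hspa8, Hspa9, Hsp90aa1, Hsp90ab1, Cryab and Cct4 had no window. The 30-base stretches below show the match in capitals, 5′ to 3′ on the strand of the gene, for the called members with a match, for Hspa1a, the copy of Hspa1b, for the chaperonin pair, and for Dnajb6, the remaining member with a 3-unit form.
Hsph1 (chr5:149636351-149636380, minus strand): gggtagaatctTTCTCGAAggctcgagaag
Hspa1b (chr17:34959324-34959353, minus strand): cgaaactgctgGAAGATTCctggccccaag
Hspa1a (chr17:34972242-34972271, minus strand): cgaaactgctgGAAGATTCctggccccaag
Dnaja1 (chr4:40722333-40722362, plus strand): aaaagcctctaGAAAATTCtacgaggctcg
Hspb1 (chr5:135887811-135887840, plus strand): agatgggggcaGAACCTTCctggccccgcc
Hspb6 (chr7:30553170-30553199, plus strand): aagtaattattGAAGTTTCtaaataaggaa
Cct2 (chr10:117063399-117063428, minus strand): ccccaagtgaaGAAGTTTCtagcaggacct
Hspd1 (chr1:55088053-55088082, minus strand): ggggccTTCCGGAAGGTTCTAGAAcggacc
Hspe1 (chr1:55088053-55088082, plus strand): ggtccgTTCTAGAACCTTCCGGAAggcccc
Dnajb6 (chr5:29735844-29735873, plus strand): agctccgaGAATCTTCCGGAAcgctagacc

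Hspa1a and Hspa1b, neighbouring copies of the inducible HSP70 gene, carry the same 30 bases. Hspd1 and Hspe1, which encode the mitochondrial chaperonin and its lid, are transcribed away from each other, and the 2 stretches printed are the same DNA read on opposite strands. The 12 members with a match had a median difference between 27 and 37 °C of 0.62 in WT and 0.31 in Bmal1-/- on the log2(FPKM + 1) scale, and the 14 members with a window but no match 0.41 and 0.14. The lowest value with a match was that of Hsph1 and the highest without one that of Hspa4l, in both genotypes. A match describes the sequence only.

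Level comparisons were made on log2(FPKM + 1), with a gene called where the adjusted p was under 0.05 and the difference at least 2-fold. Folds are those of FPKM + 1, which at low levels are smaller than those of FPKM itself. Percentages in brackets give the share of all genes called in the same direction. In AM and PM, 1 of 33 members was higher in Bmal1-/- (7.01%) and 5 were lower (7.53%). At the 3 temperatures, again 1 was higher (5.94%) and 5 were lower (6.96%). From 37 to 27 °C, 5 members rose (8.42%) and 1 fell (5.23%) in WT, and 2 rose (7.63%) and 1 fell (4.07%) in Bmal1-/-. From 37 to 32 °C 0 members rose in WT (1.95%) or in Bmal1-/- (1.80%) by limma, and 1 fell in each (1.37% and 0.944%). At an unadjusted p under 0.05 and any size, 19 members stood higher and 10 lower at 32 °C in WT, and 15 and 14 in Bmal1-/-. Shares of all genes are not given for these unadjusted counts. The change from 37 to 27 °C in Bmal1-/- minus that in WT was called positive in 0 members by limma (2.77%) and negative in 1 (1.67%). At an adjusted p under 0.05 and any size it was positive in 5 members (34.3%) and negative in 21 (34.5%), and at an unadjusted p under 0.05 in 6 and 22. At a limit of 1.5-fold it was positive in 2, Hspa8 and Hspb6, and negative in 2, Hspa1b and Hspb1.

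These counts rest on 0 to 5 genes in each direction, so the calls are read gene by gene. Hsph1, Hspa4l, Hspa1b and Dnaja1 were called lower in Bmal1-/- in both sets of courses, which share no library. The median difference between genotypes over the members was -0.21 in AM and PM and -0.06 at the 3 temperatures, against 0.00 and -0.02 over all genes. The median change from 37 to 27 °C was 0.48 in WT and 0.23 in Bmal1-/-, against 0.21 and 0.20 over all genes.

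All genes together shifted with temperature in the deposited values, by a median of 0.21 in WT and 0.20 in Bmal1-/- from 37 to 27 °C and of 0.13 in both from 37 to 32 °C. A rescaling by median of ratios brought these medians to -0.01, -0.02, 0.00 and 0.01. Under it, all genes called from 37 to 27 °C split into 588 higher and 1034 lower in WT in place of 1097 and 682, and into 535 and 838 in Bmal1-/- in place of 994 and 530. From 37 to 32 °C they split into 188 and 254 in place of 254 and 178 in WT, and 159 and 168 in place of 234 and 123 in Bmal1-/-. Among the members the counts became 1 higher and 2 lower in each genotype at 27 °C. From 37 to 27 °C the sign turned for Hsp90aa1 and Hspd1 in WT and for 8 members in Bmal1-/-, and from 37 to 32 °C for 7 members in each genotype. Genotype calls were the same members under both scalings.

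**Figure D1:**
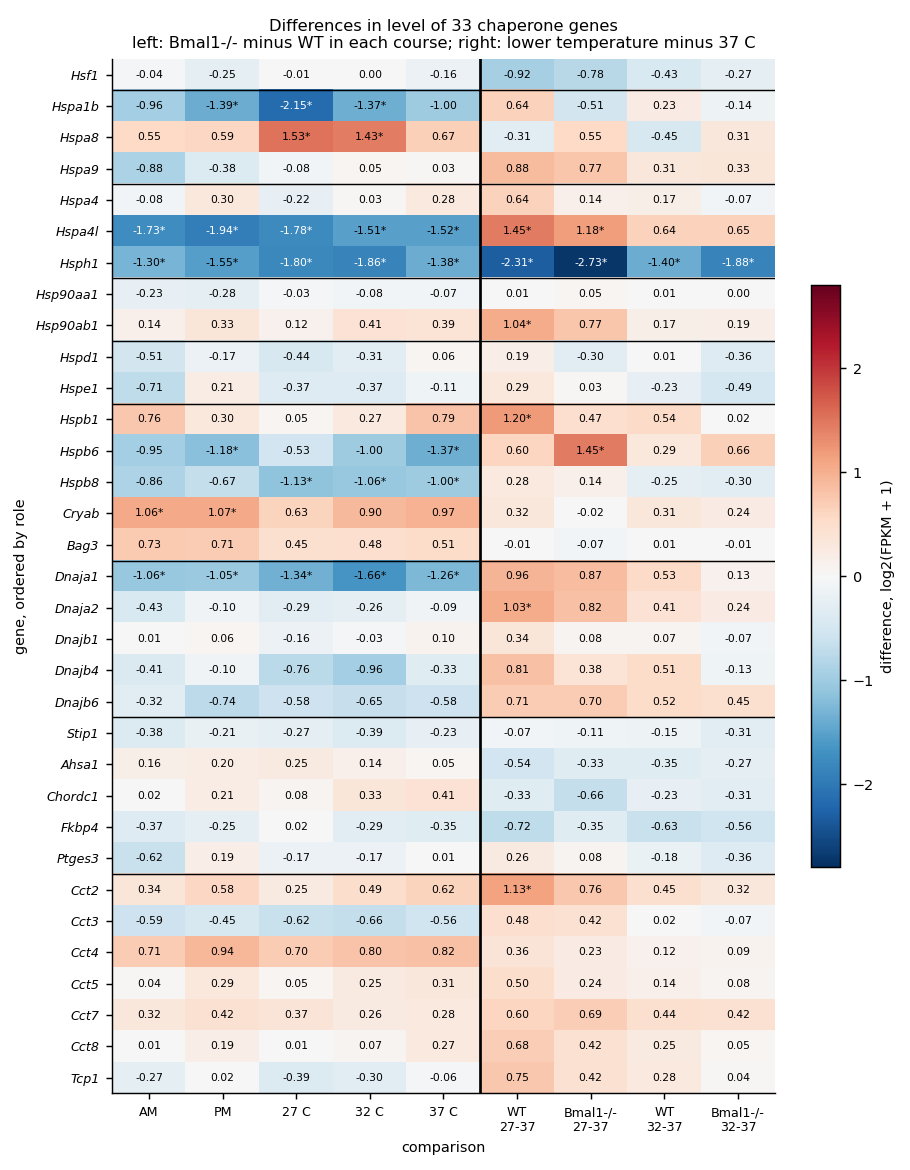
Differences in log2(FPKM + 1) for the 33 members in rows, ordered by role, with Bmal1-/- minus WT in each of the 5 courses on the left and the lower temperature minus 37 °C on the right; an asterisk marks an adjusted p under 0.05 with at least a 2-fold difference. Hsph1 and Hspa4l are lower in Bmal1-/- in all 5 courses, and from 37 to 27 °C they go in opposite directions.

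Hsf1, which encodes the regulator of the family, stood lower in the cold. In WT its lowest, median and highest values were 10.4, 12.9 and 15.8 FPKM at 27 °C, 16.1, 18.9 and 20.6 at 32 °C and 23.4, 25.4 and 29.5 at 37 °C. In Bmal1-/- they were 9.87, 12.7 and 16, 16.1, 18.9 and 20.5 and 20.3, 23.1 and 25 FPKM. Neither genotype's 27 °C libraries reached its 37 °C libraries. The difference between 27 and 37 °C was -0.92 ± 0.03 (SE) in WT and -0.78 ± 0.03 (SE) in Bmal1-/-, just short of 2-fold; under the median-of-ratios scaling it was -1.17 and -1.03 and was called in both. Between genotypes Hsf1 differed little, from -0.25 in PM to 0.00 at 32 °C.

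Hsph1 encodes HSP110, the nucleotide exchange factor that also helps HSP70 to dissolve aggregates. It gave the largest temperature difference of the members. In WT the lowest, median and highest values were 13.5, 17.1 and 27.2 FPKM at 27 °C, 28.6, 32.4 and 39.9 at 32 °C and 64, 92.2 and 109.9 at 37 °C. In Bmal1-/- the same temperatures gave 2.79, 4.51 and 6.93, 5.49, 8.43 and 12.7 and 26.1, 33.5 and 38.9 FPKM. In WT every library lay above all those of the next lower temperature. In Bmal1-/- the 37 °C libraries lay above all others, while the 27 and 32 °C ranges overlapped. Hsph1 fell by 2.31 ± 0.06 (SE) on the log2 scale from 37 to 27 °C in WT, a 4.96-fold difference in FPKM + 1 (adjusted p = 6.75e-71, limma). In Bmal1-/- it fell by 2.73 ± 0.06, a 6.63-fold difference in FPKM + 1 (adjusted p = 9.31e-79, limma). It was the only member called between 32 and 37 °C, where it fell by 1.40 in WT and by 1.88 in Bmal1-/-.

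Hsph1 also differed between genotypes. In AM the libraries held 46, 75.1 and 90.2 FPKM in WT and 20.4, 29.1 and 35.6 in Bmal1-/-, and in PM 77.9, 106 and 122 and 27, 34.2 and 43. WT was higher at 34 of 34 matched time points in AM and PM and at 71 of 71 at the 3 temperatures, and the ranges did not overlap in any course. The difference was -1.42 ± 0.04 (SE) in AM and PM and -1.68 ± 0.03 (SE) at the 3 temperatures. Bmal1-/- cells at 37 °C thus held Hsph1 at a mean of 33.5 FPKM, beside 33.1 in WT cells at 32 °C.

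Hspa4l, another HSP110 gene, moved the other way with temperature and the same way with genotype. WT libraries held 28.5, 34.4 and 42.6 FPKM at 27 °C and 10.3, 12.1 and 14.7 at 37 °C, and Bmal1-/- libraries 7.65, 9.62 and 11.2 and 2.72, 3.53 and 4.89. The 27 and 37 °C ranges did not overlap within a genotype, nor did the genotypes overlap at either temperature. At 32 °C Bmal1-/- libraries held 4.72, 6.12 and 10.1 FPKM, a range that overlaps those at 27 and 37 °C. Hspa4l rose by 1.45 ± 0.05 (SE) from 37 to 27 °C in WT and by 1.18 ± 0.05 (SE) in Bmal1-/-, the latter 0.95 and no longer called under the median-of-ratios scaling. The difference between genotypes was -1.84 ± 0.04 (SE) in AM and PM, the largest of any member there, and -1.60 ± 0.03 (SE) at the 3 temperatures. It was lower in Bmal1-/- at 34 of 34 and 71 of 71 matched time points. Hspa4, the most abundant HSP110 gene of WT cells at 27 °C, showed no call: its genotype differences ran from -0.22 to 0.30, and its changes from 37 to 27 °C were 0.64 in WT and 0.14 in Bmal1-/-.

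**Figure D2:**
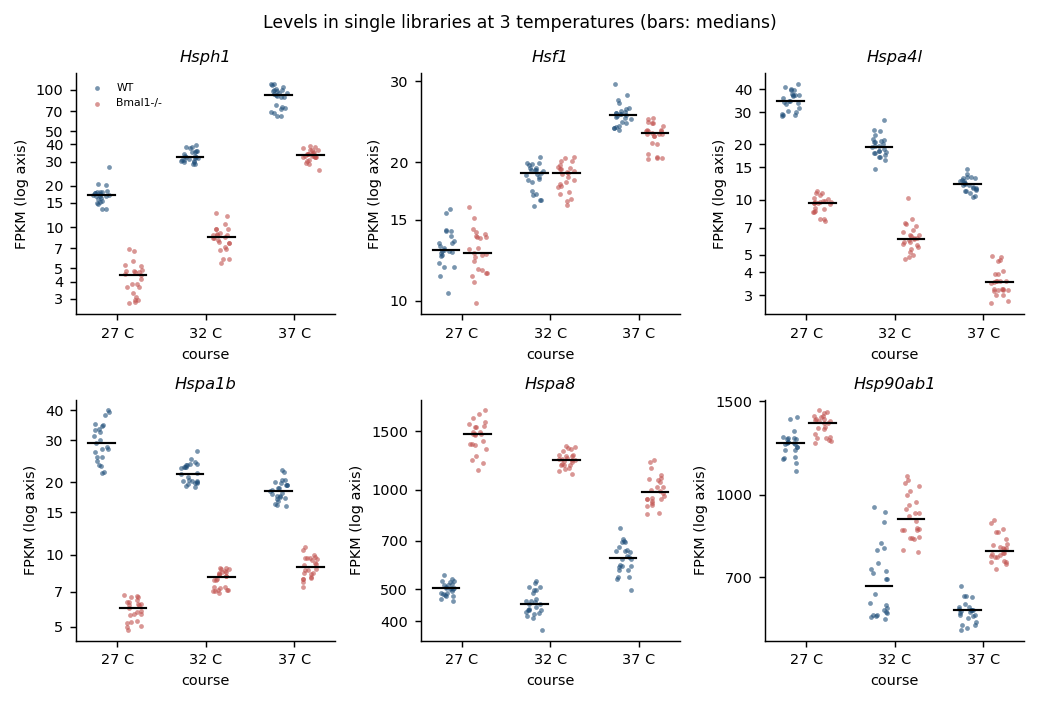
FPKM of 6 members on log axes in each library at 27, 32 and 37 °C (23, 24 and 24 libraries per genotype), WT in blue and Bmal1-/- in red, with black bars at the medians. Hsph1 and Hsf1 climb with temperature and Hspa4l declines in both genotypes, whereas from 37 to 27 °C Hspa1b and Hspa8 go in opposite directions in WT and Bmal1-/-.

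Hspa1b, the stress-inducible HSP70, was the 1 member whose change with cold differed between genotypes by at least 2-fold. WT libraries held 21.9, 29.3 and 39.9 FPKM at 27 °C, 19.1, 21.8 and 26.9 at 32 °C and 15.9, 18.5 and 22.6 at 37 °C. Bmal1-/- libraries held 4.87, 6.01 and 6.82, 6.94, 8.04 and 8.81 and 7.3, 8.85 and 10.8. WT levels were thus highest in the cold and Bmal1-/- levels lowest there. From 37 to 27 °C the difference was 0.64 ± 0.03 (SE) in WT and -0.51 ± 0.03 (SE) in Bmal1-/-, neither past 2-fold. The 2 changes differed by -1.15 ± 0.04 (SE) (adjusted p = 3.4e-49, limma). The gap between genotypes widened from -1.0 at 37 °C to -1.37 at 32 °C and -2.15 at 27 °C.

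In AM and PM Hspa1b was also lower in Bmal1-/-. AM libraries held 18.7, 21.1 and 28.1 FPKM in WT and 9.45, 10.6 and 12.2 in Bmal1-/-, and PM libraries 24.6, 30.4 and 35.5 and 8.68, 11.3 and 11.7. The ranges did not overlap, and the difference was -1.17 ± 0.03 (SE). Hspa1a lay far lower, with course medians between 0.157 and 1.55 FPKM. Of the 101-base stretches of Hspa1b transcripts, 49.7% also occur in other genes, foremost Hspa1a, so the division of reads between these copies is uncertain.

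Hspa8 encodes HSC70, the constitutive HSP70 and one of the most abundant chaperone transcripts. Its genotype difference and its changes with cold had the opposite sign to those of Hspa1b. WT libraries held 459, 503 and 552 FPKM at 27 °C, 378, 451 and 529 at 32 °C and 499, 623 and 766 at 37 °C, and Bmal1-/- libraries 1143, 1469 and 1733, 1116, 1231 and 1357 and 844, 983 and 1228. Every Bmal1-/- library lay above every WT library at each temperature. Hspa8 was higher in Bmal1-/- by 1.21 ± 0.01 (SE) over the 3 temperatures, a 2.31-fold difference, and by 0.57 ± 0.02 (SE) in AM and PM, under the 2-fold threshold. From 37 to 27 °C it changed by -0.31 ± 0.02 (SE) in WT and 0.55 ± 0.02 (SE) in Bmal1-/-. The 2 changes differed by 0.86 ± 0.03 (SE) (adjusted p = 2.89e-48, limma), short of 2-fold. Other genes share 28.4% of the 101-base stretches of Hspa8 transcripts.

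FPKM is scaled by length, so levels can be set against each other within a library. Hspa8 stood above Hspa1b by a mean log2 ratio of 5.06 ± 0.15 (SD, n = 24) in WT at 37 °C and 4.09 ± 0.26 (n = 23) at 27 °C. In Bmal1-/- the ratio was 6.81 ± 0.11 at 37 °C and 7.94 ± 0.09 at 27 °C. On a linear scale these means are ratios (geometric means) of 33.4 and 17 in WT, and 112 and 246 in Bmal1-/-. Both genes share stretches with other genes, so the size of the ratios depends on how reads were divided.

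Hspa9 encodes mortalin, the HSP70 of mitochondria. Its difference from 37 to 27 °C was 0.88 in WT and 0.77 in Bmal1-/-, short of a call in both genotypes. The 2 changes differed at an adjusted p under 0.05 by limma, but by less than 1.5-fold. Between genotypes it stood at -0.88 in AM and -0.38 in PM but within 0.08 of 0 at each temperature. AM libraries held 223, 258 and 274 FPKM in WT and 113, 137 and 159.8 in Bmal1-/-, without overlap, while the 37 °C courses held 104, 131 and 161 and 113, 134 and 152.

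The 2 cytosolic HSP90 genes differed in the cold. Hsp90ab1, the constitutive form, held 1107, 1251 and 1400.0 FPKM in WT at 27 °C and 558, 607 and 675 at 37 °C, and 1251, 1367 and 1441 and 724, 784 and 896 in Bmal1-/-. It rose by 1.04 ± 0.02 (SE) in WT and stood higher by 0.77 ± 0.02 (SE) in Bmal1-/- at 27 °C; under the median-of-ratios scaling the values were 0.77 and 0.50, and neither was called. Hsp90aa1, the stress-inducible form, differed by 0.01 in WT and 0.05 in Bmal1-/-, values that turn to -0.26 and -0.21 under that scaling. The mean log2 ratio of Hsp90ab1 to Hsp90aa1, which no scaling changes, was 1.26 ± 0.14 (SD) at 37 °C and 2.29 ± 0.18 at 27 °C in WT. In Bmal1-/- it was 1.71 ± 0.07 and 2.43 ± 0.10. Other genes share 37.8% of the Hsp90aa1 stretches and none of those of Hsp90ab1.

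Of 5 HSP90 co-chaperone members, 4 were lower at 27 than at 37 °C in each genotype, with a median of -0.33 in both, and none was called. Fkbp4, an immunophilin of steroid receptor complexes, stood at -0.72 in WT and -0.35 in Bmal1-/-. Ahsa1, which activates the HSP90 ATPase, stood at -0.54 and -0.33. Chordc1, a zinc-binding HSP90 partner, stood at -0.33 and -0.66, and Stip1, the adaptor between HSP70 and HSP90, at -0.07 and -0.11. Ptges3, which encodes p23, was the exception at 0.26 and 0.08, values that are 0.01 and -0.17 under the median-of-ratios scaling. Between genotypes Stip1 was lower in Bmal1-/- in every course, by -0.39 to -0.21, and the other 4 ranged from -0.62 to 0.41.

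Hspd1 and Hspe1 encode HSP60 and HSP10, whose products act as one machine. Neither was called in a level comparison. The mean log2 ratio of Hspd1 to Hspe1 ran from 0.65 ± 0.16 (SD, n = 23) in Bmal1-/- at 27 °C to 1.43 ± 0.18 (n = 17) in WT PM. WT AM held Hspe1 at 41.9, 63.2 and 76 FPKM, and WT PM at 31.7, 39.2 and 45. Over the time points of a course the Pearson correlation of the pair lay between -0.20 and 0.55, a description over 17 to 24 libraries that share depth and time.

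Among the small heat shock proteins the genotypes differed in both directions. Cryab, which encodes alpha B-crystallin, held 75.8, 81 and 107 FPKM in WT AM and 152, 174 and 209 in Bmal1-/- AM, and 88.4, 98.9 and 138 and 198, 209 and 244 in PM. It was higher in Bmal1-/- by 1.06 ± 0.02 (SE) there, at 34 of 34 matched time points, and stood 0.63 to 0.97 higher at the 3 temperatures. Hspb8, whose product works with BAG3 in selective autophagy, was lower by -1.06 ± 0.01 (SE) at the 3 temperatures and stood at -0.77 in AM and PM. At 37 °C its libraries held 60.2, 69.5 and 79.6 FPKM in WT and 28.4, 34.9 and 43.8 in Bmal1-/-. Bag3, the partner of HSPB8, stood higher in Bmal1-/- in all 5 courses, by 0.45 to 0.73. The 2 partners therefore lay on opposite sides in every course.

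Hspb6, which encodes HSP20, was lower in Bmal1-/- by -1.06 ± 0.04 (SE) in AM and PM. At 37 °C its libraries held 15.5, 17.6 and 21 FPKM in WT and 4.74, 6.36 and 7.56 in Bmal1-/-, and at 27 °C 21.9, 25.9 and 40.3 and 16, 18.7 and 21.9. It rose by 1.45 ± 0.03 (SE) in Bmal1-/- in the cold, and its difference in WT was 0.60 ± 0.03 (SE). The 2 changes differed by 0.84 ± 0.05 (SE), under 2-fold. Hspb1, which encodes HSP27, rose in the cold by 1.2 ± 0.06 (SE) in WT (0.97 under the median-of-ratios scaling, not called), and its difference in Bmal1-/- was 0.47 ± 0.06 (SE). The pseudogene Hsp25-ps1 holds 43.9% of the Hspb1 stretches, so Hspb1 levels are uncertain.

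**Figure D3:**
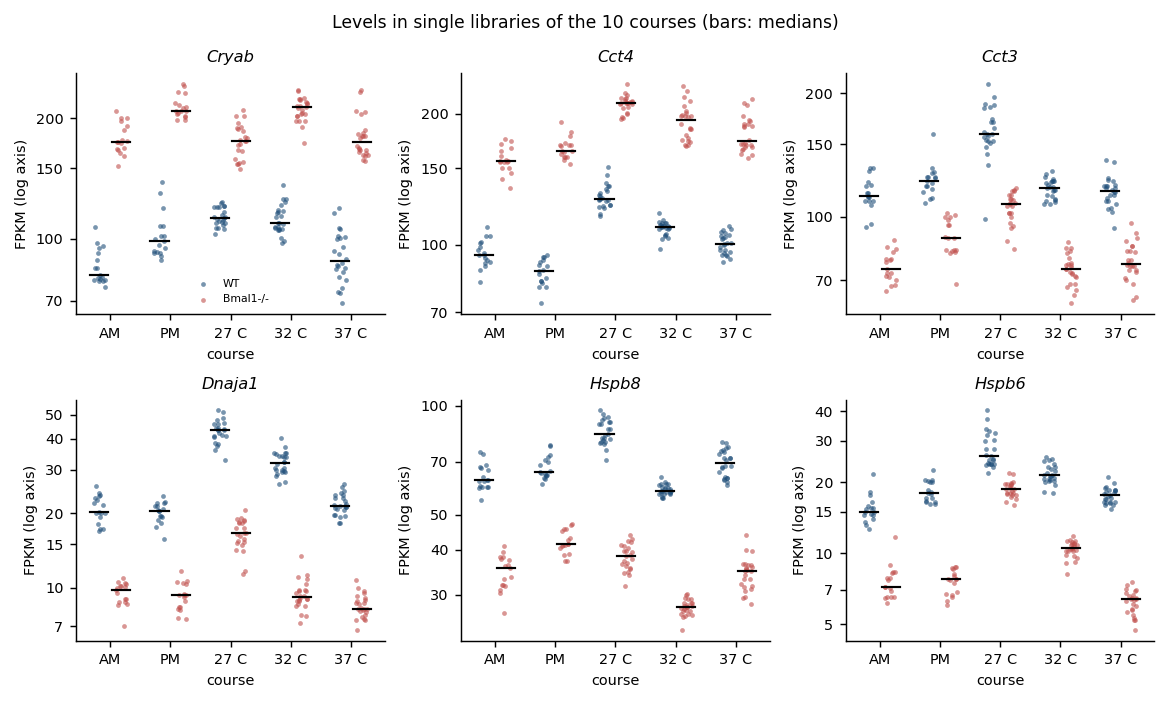
FPKM of 6 members on log axes in each library of the 10 courses, WT in blue and Bmal1-/- in red, with black bars at the medians. Cryab and Cct4 lie higher and Cct3, Dnaja1, Hspb8 and Hspb6 lower in Bmal1-/- in each course.

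J proteins stimulate the HSP70 ATPase and bring it clients. All 5 members stood higher at 27 than at 37 °C in both genotypes, with medians of 0.81 in WT and 0.70 in Bmal1-/-. Of these only Dnaja2 in WT was called: it rose by 1.03 ± 0.02 (SE), and the call was lost at 0.76 under the median-of-ratios scaling, where Dnajb1 in Bmal1-/- also changed sign, from 0.08 to -0.18. Dnaja1, a J protein with a farnesyl anchor, was lower in Bmal1-/- throughout. Its libraries held 26.2, 31.9 and 40.4 FPKM in WT and 7.2, 9.16 and 13.5 in Bmal1-/- at 32 °C, and 17, 20.3 and 25.8 and 7.04, 9.78 and 10.9 in AM. The genotype difference was -1.05 ± 0.04 (SE) in AM and PM and -1.42 ± 0.03 (SE) at the 3 temperatures, and no time point of 34 or of 71 went the other way. Dnajb6, a suppressor of aggregation, stood at -0.74 to -0.32 and Dnajb4 at -0.96 to -0.10. Dnajb1, the HSP40 that HSF1 induces with HSP70, stayed between -0.16 and 0.10.

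TRiC is a double ring of 8 different subunits that folds actin, tubulin and other proteins, with each subunit present in equal number. Cct4 stood 0.70 to 0.94 higher in Bmal1-/- in the 5 courses, Cct2 0.25 to 0.62 higher and Cct7 0.26 to 0.42 higher. Cct3 stood 0.45 to 0.66 lower, and Tcp1 ranged from -0.39 to 0.02. No subunit was called between genotypes. At 37 °C the WT libraries held Cct4 at 91.3, 100.5 and 110.4 FPKM and Cct3 at 93.8, 116 and 137. Bmal1-/- libraries held 158, 173 and 216 and 62.5, 76.8 and 96.4.

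The log2 ratio of Cct4 to Cct3 within a library does not depend on scaling. Its mean lay between -0.50 and -0.10 in the WT courses and between 0.90 and 1.37 in the Bmal1-/- courses, with SDs of 0.10 to 0.20. The highest WT library of all 5 courses reached 0.31 and the lowest Bmal1-/- library 0.64, so the genotypes did not overlap in this ratio. Cct4 and Cct3 are the subunits that stood highest and lowest in Bmal1-/-, so their ratio is a description of a picked pair. The ratio of Cct4 to Tcp1 did not overlap either (highest WT library -0.51, lowest Bmal1-/- library -0.19). That of Cct2 to Cct3 did, with a WT library at 1.08 and a Bmal1-/- library at 0.37. With cold all 7 subunits stood higher in both genotypes, by 0.36 to 1.13 in WT and 0.23 to 0.76 in Bmal1-/-. Cct2 rose past 2-fold in WT (0.87 and not called under the median-of-ratios scaling, where Cct4 and Cct5 in Bmal1-/- turn to -0.03 and -0.02).

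Across the 5 genotype comparisons, 24 of 33 members (72.7%) kept one sign, 12 higher and 12 lower in Bmal1-/-, against 62.3% of 12714 genes tested in both sets. A difference of at least 1.5-fold in all 5 was held by 7 members (21.2%), against 15.5% of genes: Hspa1b, Hspa4l, Hsph1, Hspb8 and Dnaja1 lower, Cryab and Cct4 higher. By course means, 4 members increased from 27 to 32 to 37 °C in both genotypes (Hsf1, Hsph1, Ahsa1 and Chordc1; 12.7% of all genes) and 13 decreased (33.6% of all genes). These orders were not tested as such.

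Beside these differences, markers of other cell types also moved, in both directions. Between genotypes, 3 of 5 adipocyte markers were called higher in Bmal1-/- in AM and PM (Fabp4 by 2.42, Lpl by 1.27 and Pparg by 1.22) and 1 at the 3 temperatures (Lpl by 1.42). The summed adipocyte markers ran from 65.6 to 112 FPKM in WT and from 146 to 228 in Bmal1-/- at 37 °C, and from 21.8 to 39.2 and 34.3 to 60.4 at 27 °C. Of 6 melanocyte and Schwann cell markers only Mlana was abundant enough to be tested, and it was lower in Bmal1-/- by -2.84 in AM and PM and by -2.87 at the 3 temperatures. The sum of these 6 ran from 2.89 to 10.1 FPKM in WT and from 0.167 to 2.23 in Bmal1-/- at 37 °C, and Dct and Sox10 stayed under 0.1 FPKM in every library used. Of the 2 macrophage markers tested, Lyz2 was lower in Bmal1-/- by -1.34 and -1.39, and of the 2 endothelial markers tested in AM and PM, Kdr was lower by -1.74. Summed endothelial markers ran from 3.32 to 6.28 FPKM in WT AM and from 1.15 to 2.87 in Bmal1-/- AM.

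With cold the macrophage markers tested went different ways. From 37 to 27 °C Cd68 rose by 3.19 in WT and by 3.73 in Bmal1-/-, while Lyz2 fell by 1.25 in WT and stood at -0.22 in Bmal1-/-. The summed macrophage markers ran from 24.9 to 41.4 FPKM in WT and from 18 to 41.5 in Bmal1-/- at 27 °C, against 6.43 to 10.0 and 1.17 to 3.07 at 37 °C. All 3 smooth muscle markers tested, Acta2, Cnn1 and Tagln, rose in Bmal1-/-, by 1.5, 1.31 and 1.25 (Tagln 0.99 and not called under the median-of-ratios scaling). None of the 3 was called in WT, and Cnn1 was lower in Bmal1-/- in AM and PM by -1.39. Summed smooth muscle markers ran from 246 to 489 FPKM at 27 °C and from 68.7 to 172 at 37 °C in Bmal1-/-, and from 157 to 382 and 103 to 180 in WT. Lpl fell by 3.55 in WT and by 2.40 in Bmal1-/-, and Fabp4 by 2.15 in Bmal1-/-. Fibroblast markers moved too: 3 of 9 were called lower in WT and 2 in Bmal1-/- from 37 to 27 °C, and 3 lower in Bmal1-/- at the 3 temperatures. In AM and PM Dcn was higher in Bmal1-/- by 1.01 (0.99 and not called under the median-of-ratios scaling). Pdgfra and Pdgfrb were lower there, by -1.59 and -1.07. Under that scaling Col1a2, Col3a1 and Dcn were also called lower from 37 to 27 °C in WT, at -1.11, -1.11 and -1.13. So was Col3a1 in Bmal1-/-, at -1.12. The part of these markers in the chaperone differences was not tested. In bulk RNA, fewer cells of a type and less RNA per cell cannot be told apart.

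A wider set of 79 chaperones, co-chaperones and organelle chaperones outside the member list was read in the same way, with the share of all genes called in brackets. From 37 to 27 °C, 5 of 79 rose (8.42%) and 3 fell (5.23%) in WT, and 3 rose (7.63%) and 2 fell (4.07%) in Bmal1-/-, with medians of 0.32 and 0.31. Under the median-of-ratios scaling these counts were 0 higher and 6 lower in WT and 2 higher and 4 lower in Bmal1-/-. Ppid, a cyclophilin that binds HSP90, fell by 1.69 in WT and by 1.27 in Bmal1-/-. Bag2, an HSP70 nucleotide exchange factor, rose by 1.14 and 1.63 (0.89 in WT under the median-of-ratios scaling, not called). The collagen chaperone Serpinh1 fell in WT by 1.30. Hspa12a, a distant HSP70, fell by 1.24 in Bmal1-/-. The change from 37 to 27 °C differed between genotypes for Dnaja4, a J protein, by -1.17. In AM and PM 2 of 79 were higher (7.01%) and 0 lower (7.53%) in Bmal1-/-, and at the 3 temperatures 2 were higher (5.94%) and 1 lower (6.96%). Sugt1, an HSP90 partner, was higher by 1.07 and 1.08, Pfdn5, a prefoldin subunit, by 1.06 in AM and PM. Dnajc9 was higher by 1.44 and Dnajb5 lower by -1.34 at the 3 temperatures. For scale, the cold-inducible RNA-binding genes Cirbp and Rbm3 rose from 37 to 27 °C by 2.29 and 2.11 in WT and by 2.75 and 1.39 in Bmal1-/-.

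Levels also drifted over the 2 days of sampling. The linear term is given per 24 h, with the shares of all genes rising and falling in brackets. In WT, 13 of 33 members rose and 0 fell in AM (5.77% and 7.56%), and 10 rose and 0 fell in PM (9.03% and 8.35%). At 37 °C 19 rose and 0 fell (10.3% and 16.3%), at 32 °C 13 rose and 2 fell (14.9% and 15.3%), and at 27 °C 9 rose and 7 fell (19.8% and 17%). At an unadjusted p under 0.05, 1 WT member fell in AM, 0 in PM and 1 at 37 °C. In Bmal1-/-, 3 rose and 0 fell in AM (3.52% and 4%), and 6 rose and 0 fell in PM (2.94% and 1.94%). At 37 °C 3 rose and 12 fell (15.4% and 21.8%), at 32 °C 5 rose and 6 fell (8.27% and 7.33%), and at 27 °C 2 rose and 9 fell (11.4% and 11.7%). At an unadjusted p under 0.05, 0 Bmal1-/- members fell in AM and 1 in PM. The difference between the slopes of the genotypes was not tested. A linear term does not show when within the 2 days a change took place.

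Hsph1 had the steepest WT slope at 37 °C, 0.38 per 24 h, and Cryab the next, 0.31. The Hsph1 slope was 0.27 in WT AM and 0.30 in WT PM. Hspa1b rose by 0.36 at 27 °C, 0.19 at 32 °C, 0.14 at 37 °C and 0.26 in PM in WT. In Bmal1-/- it rose by 0.12 at 32 °C and fell by 0.21 at 37 °C. Hsp90ab1 fell at 32 °C in both genotypes, by 0.36 in WT and by 0.24 in Bmal1-/-. Hspb1 fell by 0.39 at 27 °C and by 0.33 at 37 °C in Bmal1-/-, and rose by 0.26 in WT AM and PM.

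**Figure D4:**
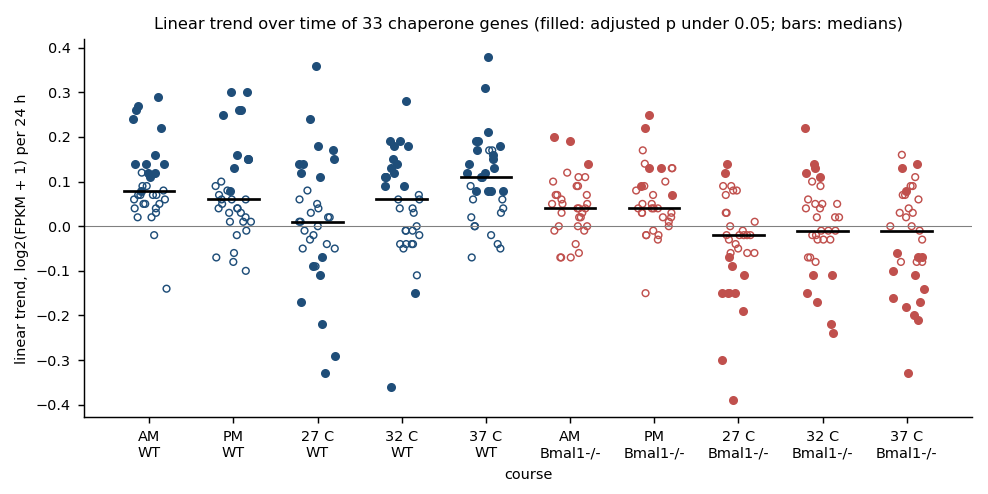
Linear trend in log2(FPKM + 1) per 24 h of each member (1 circle per gene) in the 10 courses, WT in blue and Bmal1-/- in red, filled where the adjusted p was under 0.05, with black bars at the medians. In WT AM, PM and 37 °C all filled circles lie above 0; in Bmal1-/- at 27 and 37 °C most lie below.

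Rhythms of 24 h were tested after removal of the linear drift, and an amplitude is the rise of log2(FPKM + 1) from the mean to the peak. In WT AM and PM, the average of the cosine and sine terms of the 2 courses (the shared test) was called in 4 of 33 members (6.12% of all genes). The difference of these terms (the opposite test) was called in 3 (2.97%). In Bmal1-/- these numbers were 6 (5.28%) and, by limma, 0 (0.368%, and 9 at an unadjusted p under 0.05). A rhythm in AM or PM alone can pass either test. A call therefore shows neither a rhythm in both courses nor opposite phases. In the shared test over 27, 32 and 37 °C, 2 WT members were called (5.16%) and 11 Bmal1-/- members (15.3%). Amplitudes of called members were small, from 0.04 to 0.18 in these shared and opposite tests. The WT members were Ptges3 (0.18, peak at 15.2 h), Hspe1 (0.15, 16.8 h), Cct7 (0.10, 23.8 h) and Dnaja2 (0.07, 15.7 h) in AM and PM, and Hsp90aa1 and Hspd1 over the temperatures. Hsp90ab1, Dnajb4 and Cct2 were those called in the opposite test. With the courses tested alone, Hsp90ab1, Dnajb4, Cct7, Dnaja2 and Ptges3 were called in WT AM and only Bag3 in WT PM. Hspe1, Dnaja2 and Cct7 were called in the AM and PM test of both genotypes.

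Tested alone, the Bmal1-/- 37 °C course had 11 members called (8.46% of all genes), with peaks at 17.4 to 18.6 h and amplitudes of 0.07 to 0.14. The 27 °C course had 5 (9.85%): Hspa8 (amplitude 0.13, peak at 16.7 h), Cryab (0.15, 16.5 h), Hsf1 (0.11, 15.3 h), Hspb1 (0.21, 14.2 h) and Chordc1 (0.13, 3.3 h). In Bmal1-/- AM 7 passed (3.40%), with peaks at 16.9 to 18.3 h, and Hspa8, Hsp90ab1, Cryab, Cct2, Cct4 and Cct5 were called in both AM and 37 °C. In the 37 °C course the members stood high in 5 libraries, CT8 and CT16 to CT22. There 23 to 29 of 33 members lay above their course mean, and 7 to 19 in the other 19 libraries. The 5 were picked by these values, so they are described and not tested against the rest. Cct5 held 194 to 215 FPKM in them and 149 to 171 elsewhere in the course. At CT40 to CT46, 24 h after the high values of CT16 to CT22, it held 153 to 158 FPKM. The depth of the 5 libraries was 20.14 to 26.39 M reads, and of the others 23.8 to 33.05 M; its part in the result was not tested.

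Without these 5 libraries, an alternative chosen after the data were seen, 0 members passed by limma in the 37 °C course (0.475% of all genes, and 1 member at an unadjusted p under 0.05). In the shared test over temperatures 3 passed (10.1%), Hspa8, Hsp90aa1 and Cryab. The 12 members falling over time in that course became 4, and the 3 rising became 5. Rhythm calls of the members also depended on the period and on the drift term, with the share of all genes called in brackets. Over 27, 32 and 37 °C the 11 in Bmal1-/- became 5 at a period of 22 h (9.5%) and 3 with no linear term (14.3%). In the courses tested alone, the 11 at 37 °C became 0 by limma at a period of 22 h (3.16%, and 9 members at an unadjusted p under 0.05). They became 12 at 26 h (14.9%) and 2 with no linear term (3.71%). In the same order, the 7 in AM became 2 (0.842%), 4 (3.34%) and 1 (1.88%), and the 5 at 27 °C became 3 (5.59%), 7 (12.2%) and 7 (13.9%). With the CT14 pair at 27 °C kept under its labels, 7 were left in the shared test (9.65%), 3 in the 37 °C course (4.53%) and 2 in the 27 °C course (9.23%).

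**Figure D5:**
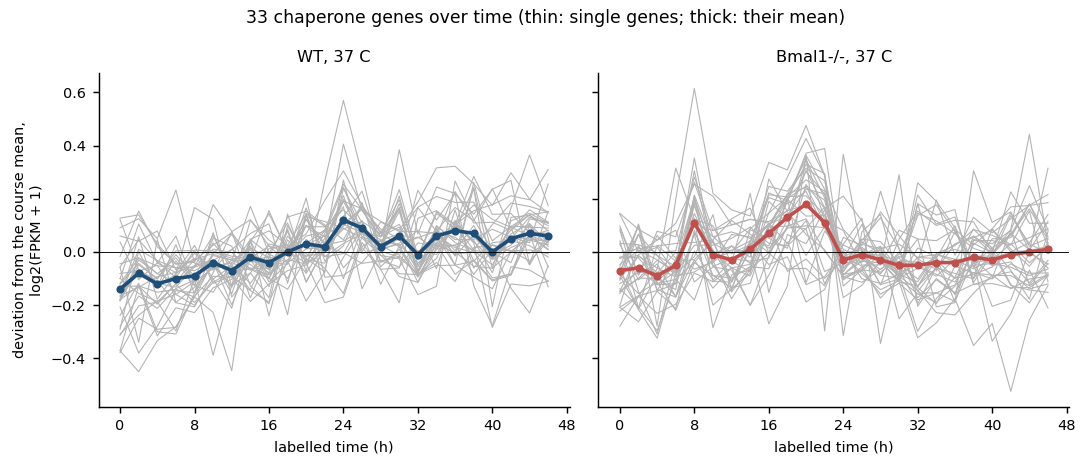
Deviation from the course mean in log2(FPKM + 1) against labelled time at 37 °C, for the 33 members (thin grey lines) and their mean (thick line with 1 point per library), WT on the left and Bmal1-/- on the right. The WT mean climbs from -0.14 at CT0 to 0.12 at CT24 and lies between -0.01 and 0.09 after that. The Bmal1-/- mean stands at 0.11 at CT8 and at 0.18 at CT20, and between -0.05 and 0.01 from CT24 on.

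Other genes whose levels moved most like the inducible set were listed by likeness to the mean of Hspa1a, Hspa1b, Dnajb1 and Hsph1. Values were centred within each course, over 210 libraries that share depth and time. The 10 genes outside the list with the highest Pearson r were Fgd3 (0.64), Actn4 (0.59), Kctd10 (0.57), Fhl2 (0.55), Maff (0.54), Slc48a1 (0.54), Gm15725 (0.53), Gm12715 (0.52), Fgf18 (0.52) and Hsp25-ps1 (0.52). Within the set, Hspa1b had an r of 0.72, Hsph1 of 0.71 and Dnajb1 of 0.48 with this mean, which contains them. Over single courses the r of Hspa1a with Hspa1b was 0.67 in WT AM and between -0.07 and 0.38 in the others. Hspa1a averaged 0.596 FPKM, and 56.3% of its 101-base stretches also occur in other genes, foremost Hspa1b. At such a level these r values do not show whether the 2 copies moved together. Among members outside the set of 4, Hsp90aa1 (0.54) and Cryab (0.53) came first, and Hspe1 (-0.24) came last. Within single courses, in the order AM, PM, 27, 32 and 37 °C, Hsp90aa1 and Hsph1 had an r of 0.91, 0.68, 0.38, 0.40 and 0.79 in WT. In Bmal1-/- the values were 0.45, 0.24, -0.01, -0.01 and -0.05. These correlations are descriptions and carry no test.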

How the data were processed

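Poly(A) RNA of 212 fibroblast cultures was measured by stranded single-end sequencing, and the authors deposited FPKM per gene, 1 column per library. TopHat, TopHat2 2.1.0, Cuffdiff and GRCm38 are named in the submitters' processing notes. The annotation and program settings were not given in the sources used here. Cuffdiff can divide reads between similar genes, so shared 101-base stretches of transcripts were counted. From the FPKM, log2(FPKM + 1) was computed for genes averaging 1 FPKM or more and fitted with limma 3.58.1 (R 4.3.3, with the package data.table at version 1.17.8). Each course had an intercept, a linear term centred at 24 h and a 24 h cosine and sine. AM and PM (68 libraries, 13307 genes) and the 3 temperatures (142 libraries, 13031 genes) were fitted apart. The p-values were two-sided and adjusted by Benjamini-Hochberg over all genes. Depth was estimated from the steps of low values, of which 94.9% were whole reads within 0.15. Scripts were tested on simulated data. The members and lists were chosen with earlier results of these data known. All members were named, up to 3 called genes per other list and comparison, and the 10 most similar genes. Alternatives were other pseudocounts, filters, scalings, fold limits, periods and drift terms, a block by time point, and libraries left out or kept.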

Additional observations from a re-analysis of the deposited data

Results flagged for a closer look

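The change from 37 to 27 °C differed between genotypes at an adjusted p under 0.05 by limma's test of that difference in 26 of 33 members, 5 with a positive and 21 with a negative value of Bmal1-/- minus WT, against 34.3% and 34.5% of all genes. The 4 members where it reached 1.5-fold are given here, on the log2(FPKM + 1) scale. For Hspa1b it was -1.15, from 0.64 in WT and -0.51 in Bmal1-/-. For Hspa8 it was 0.86, from -0.31 in WT and 0.55 in Bmal1-/-. For Hspb6 it was 0.84, from 0.60 in WT and 1.45 in Bmal1-/-. For Hspb1, which shares 43.9% of its 101-base stretches with Hsp25-ps1, it was -0.73, from 1.2 in WT and 0.47 in Bmal1-/-. The difference was at least 2-fold for Hspa1b alone, and the changes of Hspa1b and Hspa8 had opposite signs in the genotypes.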

How the results depend on the processing

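Of 141 alternative values of the 24 calls of single members, 136 kept their direction and call, 5 kept the direction and lost the call, and 0 reversed. The 5 were all under the median-of-ratios scaling and all from 37 to 27 °C. They were Hspb1, Hsp90ab1, Dnaja2 and Cct2 in WT and Hspa4l in Bmal1-/-. Of the WT calls Hspa4l and Hsph1 were kept, and with Hsf1, called only under that scaling, WT had 3. With a limit of 1.5-fold, calls between genotypes numbered 10 in AM and PM (3 higher, 7 lower) and 12 at the 3 temperatures (3 higher, 9 lower). From 37 to 27 °C they numbered 18 in WT (15 higher, 3 lower) and 12 in Bmal1-/- (9 higher, 3 lower). They numbered 3 in each genotype from 37 to 32 °C, and 4 for the difference between genotypes in the change to 27 °C. Shares of all genes at this limit are not given, so these counts show only how the calls depend on the limit. With the time point as a replicate block, both genotype comparisons kept 6 calls. Rhythm counts moved more, and are given here without the shares of all genes. At a period of 22 h the shared rhythm in AM and PM was called in 2 WT and 2 Bmal1-/- members, and that over the temperatures in 1 WT and 5 Bmal1-/- members. At 26 h the opposite test in WT was passed by 1 member and the shared test over the temperatures by 4. With no linear term these were 1 and 5, and 3 in Bmal1-/- over the temperatures. With no filter on low values, 0 WT members were called over the temperatures by limma (9 at an unadjusted p under 0.05 with the filter). With the CT14 pair kept, 1 WT and 7 Bmal1-/- members were called there. Without the Bmal1-/- 37 °C libraries at CT8 and CT16 to CT22, 3 Bmal1-/- members were. The causes were not tested. With 1 library per time point and 1 course per condition, course and condition cannot be told apart.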
